A study of Mus musculus with 9 samples.

Results

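Genes of fat cells, 8 in number and named Ucp1, Cidea, Adipoq, Plin1, Cfd, Pparg, Fabp4 and Car3, were followed by name through 3 deposited tables of mouse femoral artery RNA. All 8 of the 8 listed genes were present in all 3 tables, among 17093 genes found in at least 1 table. The 8 were selected on their measured values in these same libraries, in which Ucp1 and Cidea went one way with injury and the rest the other way. Their levels, differences and order are therefore given as a description, with no test. In the mouse GENCODE annotation on GRCm38, Ucp1 lies at chr8:83290352-83298452, Adipoq at chr16:23146536-23158028, Plin1 at chr7:79720218-79732903, Cfd at chr10:79890853-79892655 and Pparg at chr6:115360951-115490399. Fabp4 at chr3:10204088-10208576 and Car3 at chr3:14863512-14872523 share chromosome 3, and Cidea is on chromosome 18. Their label places them in perivascular fat, and no measurement here shows where in the sample the RNA lay.

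The samples were the media, the smooth muscle layer, of femoral arteries of C57BL/6 mice, in 9 libraries of 3 per group. The inhibitor-treated group was wire-injured and given VS-4718, an inhibitor of focal adhesion kinase (FAK), by mouth at 50 mg/kg in 2 doses a day for 2 weeks after injury. The injured group had the wire injury without the inhibitor, and the sham group was sham-operated. The labels place both injured groups at day 14 after injury and give no day for the sham arteries. A citrate buffer served as vehicle, and the labels do not say which of the injured and sham mice received it. All arteries were stripped of fat and adventitia under a microscope, and the lumen was flushed with lysis reagent to take away endothelial and immune cells. How many mice gave RNA to a library is not stated in the labels, so p-values measure only library-to-library spread, part of which may be technical.

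Fat cells store triglyceride in droplets, release it as fatty acid, and secrete hormones. White fat cells hold mainly a single large droplet, while brown and beige fat cells hold many small droplets and burn fatty acid for heat. That heat comes from UCP1, a carrier of the inner mitochondrial membrane that lets protons leak back without making ATP. PPARG, a nuclear receptor, switches on much of the fat cell program in all these cells, and UCP1 is in addition switched on by cold through noradrenaline. The fat around many arteries of the mouse can take a white, beige or brown form.

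The promoters of Ucp1 and Adipoq are shown because, of these 2 genes of fat cells, Ucp1 was low and Adipoq high in injured arteries. Each stretch runs 5′ to 3′ on the gene's own strand from 250 bases before the start of transcription to 50 after it, from RefSeq on GRCm38.p6. Both genes lie on the plus strand, Ucp1 at chr8:83290098-83290397 and Adipoq at chr16:23146286-23146585. Capitals mark the nuclear receptor motif AGGTCA, the TATA box TATAAA and the CCAAT box CCAAT on either strand.
Ucp1: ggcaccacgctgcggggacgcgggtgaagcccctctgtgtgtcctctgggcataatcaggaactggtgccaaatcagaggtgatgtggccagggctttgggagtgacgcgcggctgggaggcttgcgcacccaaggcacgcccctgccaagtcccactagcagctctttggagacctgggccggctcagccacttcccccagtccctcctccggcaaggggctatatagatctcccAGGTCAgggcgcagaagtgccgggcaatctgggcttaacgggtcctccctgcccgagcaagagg
Adipoq: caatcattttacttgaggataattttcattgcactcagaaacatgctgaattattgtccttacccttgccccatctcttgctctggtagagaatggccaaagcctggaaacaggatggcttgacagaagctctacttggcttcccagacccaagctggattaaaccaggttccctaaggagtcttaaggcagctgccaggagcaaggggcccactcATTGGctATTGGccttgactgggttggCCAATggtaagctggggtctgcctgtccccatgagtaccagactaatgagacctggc
The Ucp1 stretch held AGGTCA with its first base 14 bases before the start, a motif found in 16.3% of 32851 promoters of this length. It also held TGACG, the core of the cyclic AMP response element, 147 bases before the start, found in 20.8% of promoters. The Adipoq stretch held CCAAT at 3 places, 34, 27 and 7 bases before the start, a motif found in 37.4% of promoters, and no AGGTCA. The Ucp1 stretch was 64.7% G or C and the Adipoq stretch 50.0%, against a median of 52.7% over all promoters. A promoter was in the table for 5 of the 8 genes, namely Ucp1, Adipoq, Plin1, Cfd and Pparg. These matches describe letters in a short window and say nothing on which factors were bound.

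Levels are rescaled read counts, the reads recovered from the deposited values divided by 1 factor per library over the 9 libraries. Errors beside levels are SDs over 3 libraries, and errors beside log2 differences are standard errors. The log2 differences come from a limma fit within the 2 groups' own table, on log2(normalised count + 1), which understates differences of low genes. In bulk RNA, fewer cells of a type and less RNA per cell cannot be told apart. Between 14676891 and 21248740 reads were recovered per library.

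Ucp1, the uncoupling protein of brown and beige fat, was low in every injured library and abundant in the other 6. It had 995, 1373 and 1869 counts in the inhibitor-treated libraries, against 19.1, 24.7 and 33.6 in the injured libraries. The sham libraries had 998, 803 and 5335 counts. The lowest inhibitor-treated library held 29.6 times the count of the highest injured library. The inhibitor-treated mean was 54.8 times the injured mean, a log2 difference of 5.71 ± 0.28. The injured mean was 0.0108 times the sham mean, a log2 difference of -5.96 ± 0.63. The injured values rested on 16, 26 and 39 reads.

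Cidea, a droplet-surface protein that is abundant in brown fat and enlarges lipid droplets, had the same order of groups over a smaller range. It had 1098, 1157 and 1359 counts in the inhibitor-treated libraries, against 80.1, 39.0 and 98.1 in the injured libraries. Sham libraries had 867, 611 and 2924 counts. As with Ucp1, no injured library reached any of the other 6. The log2 difference was 4.14 ± 0.32 for inhibitor-treated over injured arteries and -4.09 ± 0.56 for injured over sham arteries.

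Adipoq, which encodes the hormone adiponectin, stood the other way round. It had 1325, 1670 and 1306 counts in the inhibitor-treated libraries, against 4100, 3144 and 5511 in the injured libraries. Sham libraries had 1799, 1513 and 3593 counts. All 3 injured libraries were above all 3 inhibitor-treated ones, but sham replicate 3 lay inside the injured range. The log2 difference was -1.54 ± 0.21 for inhibitor-treated over injured arteries and 0.95 ± 0.32 for injured over sham arteries.

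Cfd, which encodes adipsin, a secreted complement protease of fat cells, had the largest log2 difference between inhibitor-treated and injured arteries among the 6 genes that were higher in injured arteries. It had 7922, 11529 and 7193 counts in the inhibitor-treated libraries, against 40391, 24541 and 34524 in the injured libraries. Sham libraries had 12617, 12204 and 24006 counts. Cfd was the only one of these 6 whose injured and sham libraries did not overlap, by the small gap between injured replicate 2 and sham replicate 3. The log2 difference was -1.90 ± 0.24 for inhibitor-treated over injured arteries and 1.06 ± 0.30 for injured over sham arteries.

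Car3, carbonic anhydrase 3, is among the most abundant proteins of rodent fat cells and is also made in slow skeletal muscle. It had 8178, 12210 and 10712 counts in the inhibitor-treated libraries, against 33250, 26141 and 37980 in the injured libraries. Sham libraries had 12616, 11488 and 27486 counts. The log2 difference was -1.65 ± 0.20 for inhibitor-treated over injured arteries and 1.01 ± 0.33 for injured over sham arteries. Injured replicate 2 had the lowest Car3 of its group, and also the lowest Adipoq, Cfd, Fabp4 and Plin1. Its skeletal muscle markers summed to 564829, against 66294 and 34119 in the other injured libraries. That sum was led by Myh4, Acta1 and Ckm. The slow muscle markers of the list did not follow it. In injured replicates 1, 2 and 3, Myh7 had 13.1, 8.55 and 3.44 counts and Tnnt1 170, 160 and 33.6. Tnni1 had 188, 82.7 and 30.1. The part of skeletal muscle in the Car3 values was not tested.

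Fabp4, the fatty acid carrier of fat cells that capillary endothelium and macrophages also make, had 14269, 17470 and 15126 counts in the inhibitor-treated libraries. The injured libraries had 34842, 23116 and 29983 counts, and the sham libraries 16651, 13076 and 31361. The log2 difference was -0.89 ± 0.18 for inhibitor-treated over injured arteries and 0.60 ± 0.32 for injured over sham arteries. Sham replicate 3 again reached the injured range.

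Plin1, the protein that coats the fat droplet and gates lipolysis, had 1389, 1611 and 1326 counts in the inhibitor-treated libraries. The injured libraries had 2754, 1844 and 3639 counts, and the sham libraries 1380, 1164 and 3008. Its log2 difference was -0.88 ± 0.23 for inhibitor-treated over injured arteries and 0.64 ± 0.36 for injured over sham arteries. Pparg had 304, 284 and 223 counts in the inhibitor-treated libraries. The injured libraries had 398, 445 and 738 counts, and the sham libraries 253, 247 and 566. Its log2 difference was -0.91 ± 0.25 for inhibitor-treated over injured arteries and 0.62 ± 0.35 for injured over sham arteries. For both genes the inhibitor-treated libraries lay below all injured ones, and sham replicate 3 lay inside the injured range.

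**Figure D1:**
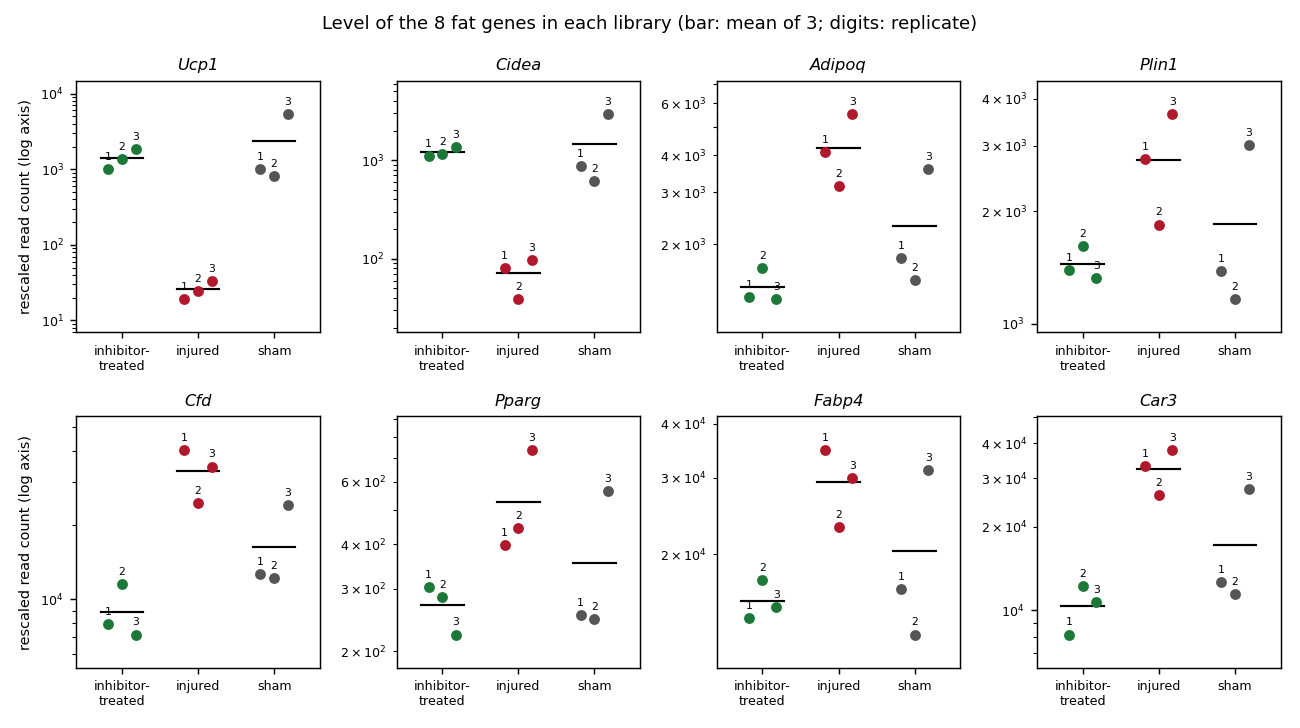
Level of each of the 8 genes, as rescaled read counts on a log axis, in 3 inhibitor-treated, 3 injured and 3 sham libraries; points are libraries, digits replicate numbers and bars group means. Ucp1 and Cidea are lowest in the 3 injured libraries, the other 6 are highest in an injured library, and sham replicate 3 is the highest sham library in all 8 panels.

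Inhibitor-treated and injured libraries did not overlap for any of the 8 genes, 2 being higher and 6 lower with the inhibitor. Over all 16901 genes tested, 26.1% were higher without overlap and 25.5% lower without overlap. Injured and sham libraries did not overlap for 3 of the 8 genes, Cfd being higher and Ucp1 and Cidea lower in injured arteries, where 26.0% and 25.3% of 16278 genes stood apart in those directions. Because the genes were chosen on these contrasts, nothing is read from these counts. All 3 comparisons share libraries, so their values are given side by side and are not independent of each other.

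Inhibitor-treated arteries lay nearer to sham arteries than to injured ones for all 8 genes. The log2 difference of inhibitor-treated over sham arteries was -0.24 ± 0.64 for Ucp1, 0.06 ± 0.50 for Cidea and -0.57 ± 0.29 for Adipoq. It was -0.62 ± 0.32 for Car3, -0.22 ± 0.31 for Plin1, -0.28 ± 0.31 for Pparg and -0.27 ± 0.28 for Fabp4. Only Cfd had no overlap, at -0.82 ± 0.28, where 14.7% of 16166 genes were higher and 13.1% lower without overlap. Without sham replicate 3 the difference was 0.63 for Ucp1 and 0.74 for Cidea, and its sign changed for Ucp1, Plin1, Pparg and Fabp4. The groups' order for these genes therefore depended on that library, and the values do not show that inhibitor-treated and sham arteries were alike.

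Sham replicate 3 stood above both other sham libraries for all 8 genes. Its count was 5.92 times the mean of sham replicates 1 and 2 for Ucp1 and 3.96 times for Cidea, and 1.93 to 2.36 times for the other 6. Over 82 other genes of fat cells, described below by list, it was the highest sham library for 70, and the median ratio was 1.70. Over all 13030 genes with a mean count of at least 50 the median ratio was 0.979, and this library was the highest sham for 30.1%. Among the 18 genes of fatty acid and triglyceride synthesis the median ratio was 2.38. Gpd1, which makes the glycerol backbone of triglyceride, had the largest ratio of that list, 4.90, and Elovl3, a fatty acid elongase of brown fat, that of the heat-production list, 5.46. Skeletal muscle markers moved with this library too, with a median ratio of 4.30 over 14 genes, while the 10 smooth muscle markers had a median of 0.826 and were highest in it for none. Endothelial markers were highest in it for 11 of 12, with a median ratio of 1.41. The part of these cell types in the values of the 8 genes was not tested. Without sham replicate 3 the log2 difference of injured over sham arteries was -5.10 for Ucp1, -3.42 for Cidea, 1.32 for Adipoq and 1.41 for Car3.

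Per length, the order of levels differed between the groups. Levels were divided by the length of the principal transcript in kilobases. In inhibitor-treated arteries the means were 17435 ± 1849 counts per kilobase for Fabp4, 9633 ± 2518 for Cfd, 6174 ± 1214 for Car3 and 1110 ± 159 for Adipoq. They were 1081 ± 123 for Cidea, 863 ± 268 for Ucp1, 512 ± 53.2 for Plin1 and 153 ± 23.9 for Pparg, so Adipoq, Cidea and Ucp1 did not differ beyond their spread. In injured arteries the means were 35957 ± 8692 for Cfd, 32716 ± 6575 for Fabp4, 19331 ± 3549 for Car3 and 3291 ± 922 for Adipoq. They were 975 ± 319 for Plin1, 298 ± 104 for Pparg, 64.9 ± 27.2 for Cidea and 15.8 ± 4.45 for Ucp1, which put Cidea and Ucp1 last, below Pparg. In sham arteries the means ran over 22726 ± 10816 for Fabp4, 17653 ± 7265 for Cfd, 10242 ± 5318 for Car3 and 1781 ± 873 for Adipoq. They were 1454 ± 1566 for Ucp1, 1316 ± 1137 for Cidea, 657 ± 358 for Plin1 and 201 ± 103 for Pparg. With these SDs, most neighbours among the sham levels did not differ beyond their spread.

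Set against Adipoq within each library, which removes the scaling between libraries, the other 7 genes ranged from nearly level to far apart. Car3 had 617, 731 and 820 reads per 100 Adipoq reads in the inhibitor-treated libraries, 811, 832 and 689 in the injured libraries and 701, 759 and 765 in the sham libraries. The highest was 1.35 times the lowest over the 9 libraries, and the 3 groups overlapped. Plin1 had 105, 96.5 and 102 reads per 100 Adipoq reads in the inhibitor-treated libraries, 67.2, 58.7 and 66.0 in the injured libraries and 76.7, 76.9 and 83.7 in the sham libraries. Fabp4 had 1080, 1050 and 1160 in the inhibitor-treated libraries, 850, 735 and 544 in the injured libraries and 926, 864 and 873 in the sham libraries. For both genes the 3 groups did not overlap, with the inhibitor-treated libraries highest and the injured libraries lowest. Adipoq was itself among the genes chosen as higher in injured arteries. A gene that differed less than Adipoq between the groups, or not at all, tends to this order. The share of all genes that do so was not counted, so nothing is read from this order, nor from that of Pparg below. Pparg had 23.0, 17.0 and 17.1 in the inhibitor-treated libraries, 9.71, 14.1 and 13.4 in the injured libraries and 14.1, 16.3 and 15.8 in the sham libraries. Cfd had 598, 690 and 551 in the inhibitor-treated libraries, 985, 781 and 626 in the injured libraries and 701, 807 and 668 in the sham libraries. The inhibitor-treated libraries were above all others for Pparg, and the groups overlapped for Cfd. Ucp1 had 75.1, 82.2 and 143 reads per 100 Adipoq reads in the inhibitor-treated libraries, against 0.466, 0.786 and 0.609 in the injured libraries. The sham libraries had 55.5, 53.1 and 148. Cidea had 82.9, 69.3 and 104 reads per 100 Adipoq reads in the inhibitor-treated libraries, 1.95, 1.24 and 1.78 in the injured libraries and 48.2, 40.4 and 81.4 in the sham libraries. For Ucp1 and Cidea the injured values were below all others, and sham replicate 3 remained the highest sham library.

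**Figure D2:**
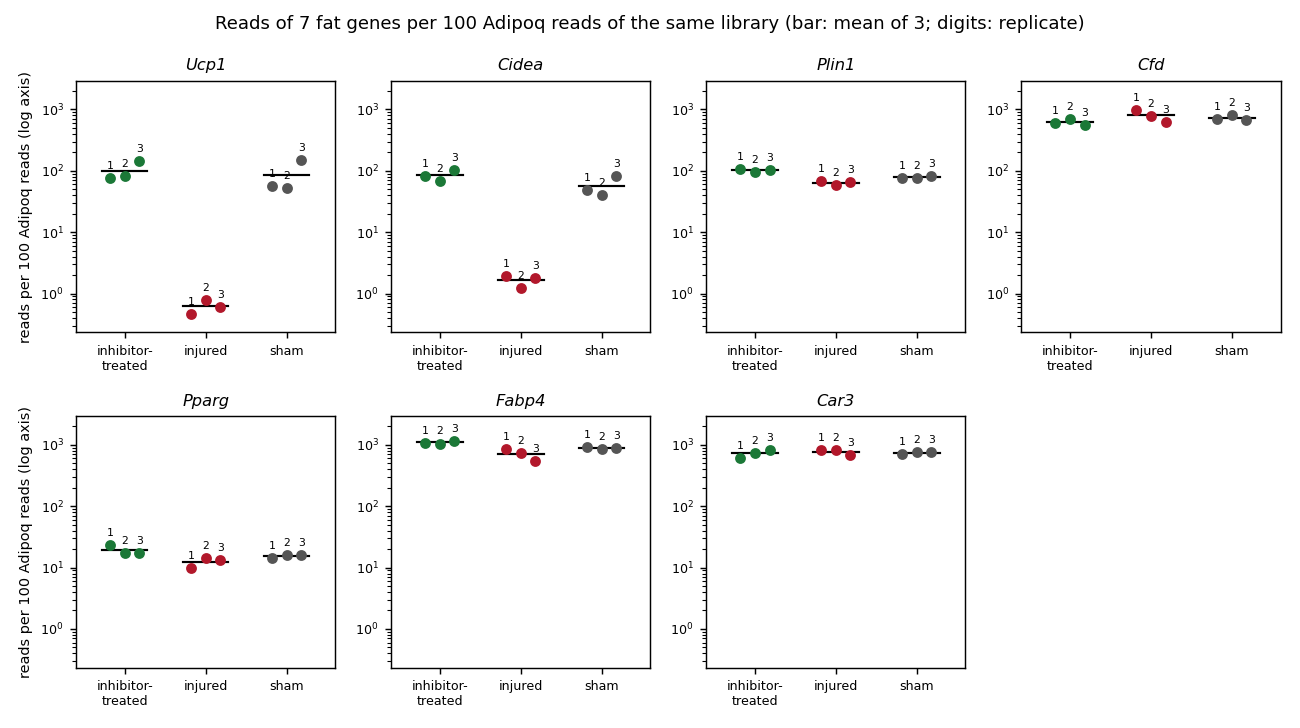
Reads of 7 genes per 100 Adipoq reads of the same library, on a log axis common to all panels, in inhibitor-treated, injured and sham libraries; points are libraries, digits replicate numbers and bars group means. Car3 stays between 617 and 832 in all 9 libraries, while Ucp1 is at most 0.786 in the injured libraries and at least 53.1 in the others.

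The genes whose profile over the 9 libraries was closest to each of 3 of the 8 were found among 13029 genes with a mean count of at least 50. Likeness was the root mean square difference of log2(count + 1) profiles, each centred on its own mean, and it is a description. Among the genes closest to Ucp1 were Elovl3 at 0.45, Gal3st3 at 0.83, Olfr224 at 0.85 and Gm6088 at 0.86. Gal3st3, Olfr224 and Gm6088 had at most 4.30 counts in any injured library. Unlike for Ucp1, sham replicate 3 was not their highest sham library. Elovl3 had 46.6, 58.8 and 195 counts in the inhibitor-treated libraries, 0, 0.95 and 0.861 in the injured libraries and 35.1, 41.1 and 213 in the sham libraries. Those injured values stood on 0, 1 and 1 reads, so no fold is given. Cidea stood at 0.91, and the other 6 genes ranked 10732 to 12006.

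Closest to Adipoq were Car3 at 0.13, Cebpa, a transcription factor of fat cell differentiation, at 0.17, Cidec, a droplet-fusion protein, at 0.18, Acp5 at 0.19 and Abcd2 at 0.21. Closest to Car3 were Adipoq at 0.13, Acp5 at 0.16, Cidec at 0.18, Cebpa at 0.18 and Asns, asparagine synthetase, at 0.20. Cidec had 1305, 1867 and 1562 counts in the inhibitor-treated libraries, 5694, 3006 and 5576 in the injured libraries and 2134, 2011 and 4631 in the sham libraries. The 9 points of a profile share their library, depth and dissection.

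A further 90 genes of fat cells were read in 6 lists, apart from the 8. In each comparison 86 of them were tested by limma with Benjamini-Hochberg adjustment over all genes, at a threshold of 0.05. Sizes of change are log2 fold changes with standard errors. With the inhibitor, 20 of the 86 (23.3%) rose and 22 (25.6%) fell relative to injured arteries, where 17.6% of all genes rose and 18.5% fell. With injury, 11 (12.8%) rose and 18 (20.9%) fell relative to sham arteries, where 20.6% of all genes rose and 16.8% fell. Between inhibitor-treated and sham arteries 1 was higher and 2 were lower, where 5.15% of all genes were higher and 0.934% lower. The count of genes that rose with injury was 22 without sham replicate 3, 5 without sham replicate 1 and 6 without sham replicate 2. Over all genes 5189, 4435 and 4350 were called there in either direction, against 6076 with all libraries. The median log2 fold changes of the 86 were -0.15, 0.04 and -0.13, close to those of all genes, 0.006, -0.003 and -0.007. The lists are given one by one below.

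The heat-production list, 19 genes tested of 22 listed, had 9 genes (47.4%) that rose and 1 (5.26%) that fell with the inhibitor. With injury 1 (5.26%) rose and 10 (52.6%) fell. Of all genes, 17.6% rose and 18.5% fell with the inhibitor, and 20.6% rose and 16.8% fell with injury. The list's median log2 fold change was 1.01 for inhibitor-treated over injured arteries and -1.10 for injured over sham arteries. None of the 19 was called between inhibitor-treated and sham arteries, where limma gave a median of 0.03. Acot11, a thioesterase that cleaves long fatty acyl-CoA in brown fat, had 1276, 1198 and 1386 counts in the inhibitor-treated libraries, 314, 360 and 424 in the injured libraries and 1510, 1675 and 1837 in the sham libraries. It rose by 1.82 ± 0.13 with the inhibitor (limma adjusted p = 0.000125) and fell by 2.20 ± 0.14 with injury (limma adjusted p = 2.2e-05). Gk, glycerol kinase, had 697, 544 and 643 counts in the inhibitor-treated libraries, 152, 195 and 192 in the injured libraries and 603, 507 and 748 in the sham libraries. It fell by 1.78 ± 0.18 with injury (limma adjusted p = 0.000159).

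Slc27a2, a fatty acid transporter and acyl-CoA synthetase, had 97.0, 85.5 and 429 counts in the inhibitor-treated libraries, 4.78, 12.4 and 10.3 in the injured libraries and 55.2, 49.3 and 231 in the sham libraries. It rose by 4.02 ± 0.65 with the inhibitor (limma adjusted p = 0.00306). Liver makes this gene as well, and in inhibitor-treated replicate 3 the 10 hepatocyte markers, led by Alb, summed to 26537, against 83.3 to 206 in the other 8 libraries. Without that library the fold change was 3.28. Ebf2, a transcription factor of brown and beige precursors, went against the list. It had 331, 296 and 305 counts in the inhibitor-treated libraries, 735, 708 and 886 in the injured libraries and 304, 356 and 468 in the sham libraries, and fell by 1.31 ± 0.12 with the inhibitor (limma adjusted p = 0.000314).

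A further 3 heat-production genes are named after their values were seen, because they are well known in brown and beige fat. All 3 were called with both injury and the inhibitor, and they do not stand for the whole list. Cox8b, Cox7a1, Cpt1b, Adrb3, Kcnk3, Clstn3 and Eva1a of that list were called neither with injury nor with the inhibitor. Ppargc1a was called only with the inhibitor, and Ppara and Fabp3 only with injury. Prdm16, a coregulator of the brown and beige program, had 2103, 1634 and 1749 counts in the inhibitor-treated libraries, 571, 493 and 602 in the injured libraries and 1744, 2040 and 1454 in the sham libraries. Dio2, which activates thyroid hormone, had 958, 825 and 857 counts in the inhibitor-treated libraries, 599, 431 and 495 in the injured libraries and 941, 940 and 1471 in the sham libraries. Otop1, a proton channel, had 124, 153 and 184 counts in the inhibitor-treated libraries, 35.9, 29.5 and 42.2 in the injured libraries and 92.3, 61.1 and 356 in the sham libraries. With the inhibitor Prdm16 rose by 1.72 ± 0.13, Dio2 by 0.80 ± 0.14 and Otop1 by 2.07 ± 0.24. With injury Prdm16 fell by 1.65 ± 0.15, Dio2 fell by 1.12 ± 0.20 and Otop1 fell by 1.81 ± 0.57. The Otop1 call with injury was lost without injured replicate 1, injured replicate 2 or sham replicate 1, at adjusted p of 0.0712, 0.0865 and 0.067. Without injured replicate 2, sham replicate 3 and inhibitor-treated replicate 3, which stood apart by their markers, Otop1 was at -0.94 for injured over sham arteries (limma adjusted p = 0.109). Without the same libraries Dio2 was at 0.71 for inhibitor-treated over injured arteries (limma adjusted p = 0.0504). Prdm16 had no high value in sham replicate 3, unlike Ucp1, Cidea and Elovl3.

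Markers of smooth muscle, the main cell of the media, moved with the heat-production list. Of the 10, led by Acta2, Myh11 and Itga8, 9 rose with the inhibitor and 9 fell with injury, where 17.6% and 16.8% of all genes did so. Their sum ran over 663618 to 679578 in the inhibitor-treated libraries, 169686 to 197377 in the injured libraries and 578351 to 755829 in the sham libraries, and no marker was under 10 throughout. Their part in the heat-production counts was not tested.

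With the inhibitor, the other 5 lists each held calls in both directions. Of all genes, 17.6% rose and 18.5% fell with the inhibitor, and 20.6% rose and 16.8% fell with injury. These lists are short, so none is read as differing from those shares. Of 12 transcription factors of fat cell differentiation, 1 (8.33%) rose and 3 (25.0%) fell with the inhibitor. With injury 2 (16.7%) rose and 1 (8.33%) fell. Klf15 rose with the inhibitor, by 1.66 ± 0.17 (limma adjusted p = 0.000467). It had 1356, 1502 and 1077 counts in the inhibitor-treated libraries, 378, 364 and 502 in the injured libraries and 1331, 1459 and 1653 in the sham libraries. Cebpa fell by 1.31 ± 0.14 with the inhibitor (limma adjusted p = 0.000511). It had 967, 1190 and 1096 counts in the inhibitor-treated libraries, 2961, 2250 and 2923 in the injured libraries and 1224, 967 and 2225 in the sham libraries. Cebpa also rose by 0.95 ± 0.28 with injury, a call that was lost without injured replicate 1 or 3 or sham replicate 1 or 2, at adjusted p of 0.0509 to 0.102. Rxrg, a partner of PPARG, fell by 1.13 ± 0.31 with the inhibitor, and that call was lost without injured replicate 2 or any single inhibitor-treated library, at adjusted p of 0.057 to 0.101.

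Of 14 droplet and lipolysis genes, 2 (14.3%) rose and 5 (35.7%) fell with the inhibitor, and 1 (7.14%) rose and 1 (7.14%) fell with injury. Plin4, a droplet coat protein, had 9399, 10437 and 9388 counts in the inhibitor-treated libraries, 4927, 4256 and 6288 in the injured libraries and 9793, 12529 and 12092 in the sham libraries. It rose by 0.94 ± 0.15 with the inhibitor and fell by 1.17 ± 0.17 with injury, so it did not go with its relative Plin1. Cidec fell by 1.55 ± 0.26 with the inhibitor (limma adjusted p = 0.00371). Of 10 uptake genes, 2 rose and 5 fell with the inhibitor, and 3 rose and 3 fell with injury. Lpl, the lipase that frees fatty acid from circulating particles, had 6070, 8693 and 7235 counts in the inhibitor-treated libraries, 29707, 17547 and 18167 in the injured libraries and 8400, 7467 and 18603 in the sham libraries. It fell by 1.54 ± 0.23 with the inhibitor (limma adjusted p = 0.00213). The lipoprotein receptor Vldlr rose by 1.23 ± 0.15 with the inhibitor and fell by 1.58 ± 0.17 with injury. Gpihbp1, the endothelial anchor of that lipase, rose by 1.18 ± 0.36 with injury, a call lost without injured replicate 1 or sham replicate 1 or 2, at adjusted p of 0.0877 to 0.117.

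Of 18 synthesis genes, 3 (16.7%) rose and 3 (16.7%) fell with the inhibitor, near the shares of all genes, 17.6% and 18.5%. With injury 1 (5.56%) fell and none rose by limma. Insr, the insulin receptor, rose by 0.64 ± 0.12 with the inhibitor and fell by 0.67 ± 0.10 with injury. Pcx, pyruvate carboxylase, fell by 0.90 ± 0.21 with the inhibitor, a call lost without inhibitor-treated replicate 1 at an adjusted p of 0.0556. Elovl6, a fatty acid elongase, rose by 1.06 ± 0.26 with the inhibitor, a call lost without inhibitor-treated replicate 1 or 3, at adjusted p of 0.0625 and 0.073. The desaturase Scd2 fell by 0.52 ± 0.16 with the inhibitor, and that call was lost without inhibitor-treated replicate 2 or 3 or any single injured library, at adjusted p of 0.0588 to 0.136.

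Of 13 secreted products and receptors, 3 (23.1%) rose and 5 (38.5%) fell with the inhibitor, and 4 (30.8%) rose and 2 (15.4%) fell with injury. Hp, haptoglobin, had 1275, 1926 and 1238 counts in the inhibitor-treated libraries, 10566, 5185 and 10487 in the injured libraries and 1529, 1461 and 4002 in the sham libraries. It fell by 2.52 ± 0.31 with the inhibitor and rose by 1.99 ± 0.42 with injury. Apln, which encodes apelin, had 20.9, 27.6 and 31.0 counts in the inhibitor-treated libraries, 226, 172 and 154 in the injured libraries and 16.1, 14.1 and 54.6 in the sham libraries. Apln fell by 2.75 ± 0.24 with the inhibitor and rose by 2.90 ± 0.47 with injury. Rbp4, a retinol carrier, had 2159, 2211 and 2496 counts in the inhibitor-treated libraries, 838, 465 and 703 in the injured libraries and 2798, 2924 and 3204 in the sham libraries. It rose by 1.82 ± 0.21 with the inhibitor and fell by 2.20 ± 0.20 with injury. Rarres2, which encodes chemerin, fell by 1.23 ± 0.13 with injury.

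Adipor1, a receptor for adiponectin, was the only one of the 86 genes called higher in inhibitor-treated than in sham arteries. It had 14390, 21236 and 9196 counts in the inhibitor-treated libraries, 2751, 3109 and 2190 in the injured libraries and 2577, 2335 and 2410 in the sham libraries. Limma gave 2.41 ± 0.29 for inhibitor-treated over injured arteries (adjusted p = 0.000852) and 2.54 ± 0.25 for inhibitor-treated over sham arteries (adjusted p = 0.00102). Erythroid markers, with Alas2 and Hbb-bs among the most abundant, summed to 41824 to 91530 in the inhibitor-treated libraries, 1345 to 5409 in the injured libraries and 4280 to 8027 in the sham libraries. Both Adipor1 and that sum were highest in inhibitor-treated replicate 2, and the part of one in the other was not tested. The 2 genes called lower than in sham arteries were Rbp4, at -0.37 ± 0.09, and the droplet protein Plin3, at -0.31 ± 0.07. The Plin3 call was lost when any single library was left out, at adjusted p of 0.0736 to 0.147, and the Rbp4 call when any single library except inhibitor-treated replicate 3 was left out, at adjusted p of 0.0766 to 0.154.

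**Figure D3:**
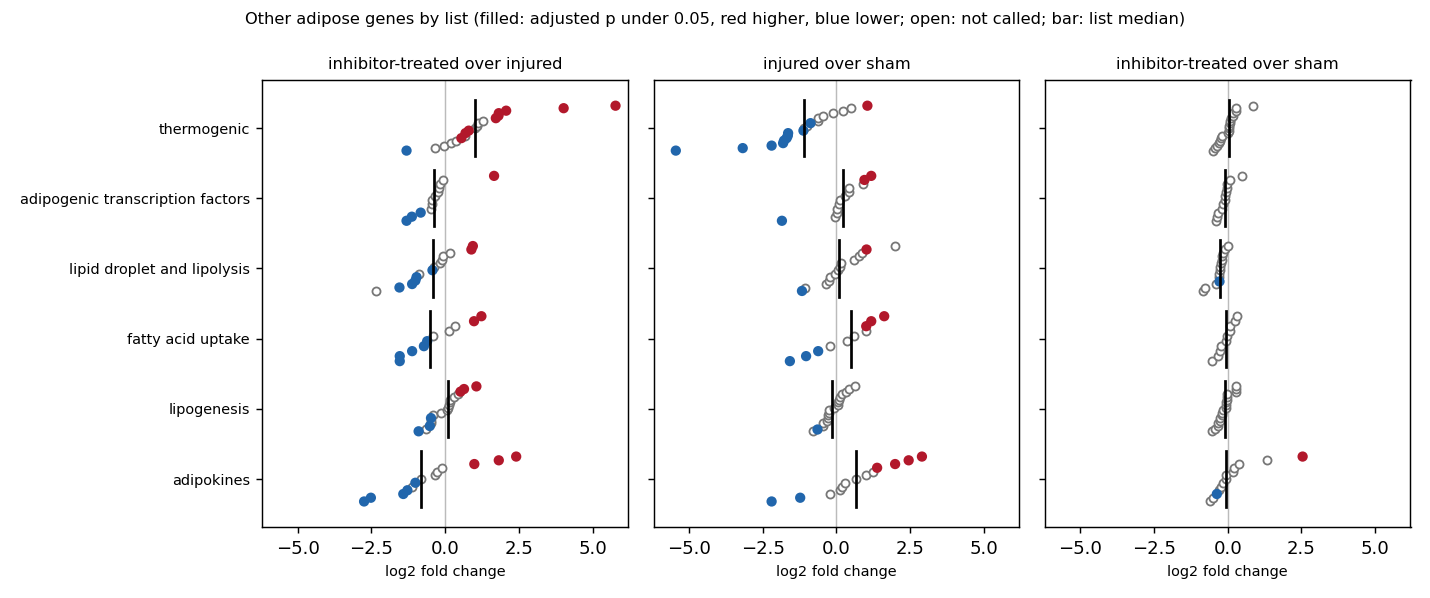
Log2 fold changes of the other genes of fat cells by list, for inhibitor-treated over injured, injured over sham and inhibitor-treated over sham arteries; filled points passed an adjusted p of 0.05 (red higher, blue lower), open points did not, and bars are list medians. The median of the thermogenic (heat-production) list is 1.01 in the first panel and -1.10 in the second, and in the third panel 3 of the 86 genes are filled.

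The protein family relatives of the 8 genes followed their own courses. Ucp2, an uncoupling-protein relative made in many tissues and in macrophages, had 2011, 5229 and 5968 counts in the inhibitor-treated libraries, 4097, 4191 and 2912 in the injured libraries and 668, 659 and 991 in the sham libraries. It rose by 2.27 ± 0.20 with injury (limma adjusted p = 8.03e-05), where Ucp1 was low, and did not pass the test between inhibitor-treated and injured arteries (0.11 ± 0.39, limma adjusted p = 0.84). Ucp2 was higher in inhibitor-treated than in sham arteries by 2.40 ± 0.38 (limma adjusted p = 0.00931), a call lost without sham replicate 1 or 2, at adjusted p of 0.0595 and 0.0521. Ucp3, the relative of skeletal muscle, had 59.9, 105 and 103 counts in the inhibitor-treated libraries, 135, 267 and 125 in the injured libraries and 47.2, 52.9 and 176 in the sham libraries, and passed limma's test in no comparison with all libraries. DESeq2 on the recovered reads called Ucp3 lower in inhibitor-treated than in injured arteries, at -0.97 (adjusted p = 0.0341). Without sham replicate 3 it was higher in injured than in sham arteries, by 1.70 (limma adjusted p = 0.0101).

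Among carriers and droplet proteins, Fabp5 went with Fabp4, with 404, 396 and 314 counts in the inhibitor-treated libraries, 1081, 1161 and 995 in the injured libraries and 340, 251 and 496 in the sham libraries. Fabp5 fell by 1.54 ± 0.13 with the inhibitor and rose by 1.62 ± 0.23 with injury. Plin2 fell by 1.12 ± 0.16 with the inhibitor and rose by 1.02 ± 0.25 with injury, and the call with injury was lost without sham replicate 1 at an adjusted p of 0.0571. Plin5 rose by 0.89 ± 0.25 with the inhibitor, a call lost without injured replicate 2 or inhibitor-treated replicate 2 or 3, at adjusted p of 0.0881 to 0.117. Ppard, a sister receptor of PPARG, rose by 0.56 ± 0.10 with the inhibitor and fell by 0.50 ± 0.11 with injury.

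Car2, a carbonic anhydrase of red cells and other tissues, had 4845, 8736 and 2828 counts in the inhibitor-treated libraries, 81.3, 75.1 and 43.9 in the injured libraries and 19.1, 15.3 and 37.1 in the sham libraries. It rose by 6.24 ± 0.41 with the inhibitor (limma adjusted p = 8.93e-05), the opposite direction to Car3, with the erythroid markers above moving in the same libraries. Car2 was also called higher with injury, the same direction as Car3. That call was lost without injured replicate 1 or 2 or sham replicate 1 or 2, at limma adjusted p of 0.059 to 0.075. Car13 fell by 2.05 ± 0.22 and Car5b fell by 1.03 ± 0.18 with the inhibitor. The Car5b call was lost with scaling on ribosomal protein genes, at -0.64 (limma adjusted p = 0.126). Car12 rose by 2.20 ± 0.73 with injury, a call lost without any single library except injured replicate 3, at adjusted p of 0.0735 to 0.149. With the inhibitor limma did not call Car12. There edgeR called it lower, at -2.68 (adjusted p = 0.0289), and so did DESeq2, at -2.71 (adjusted p = 0.00359). Its counts were low, at 45.4, 57.0 and 7.74 in the injured libraries and 5.71, 6.43 and 4.55 in the inhibitor-treated libraries. Car1, present in 1 table, rose by 2.09 ± 0.48 with the inhibitor, a call lost without inhibitor-treated replicate 1 or 2, at adjusted p of 0.0596 and 0.0549. Car4 and Car14 passed limma's test in no comparison with all libraries, and Ppara and Fabp3 passed it with injury. Ppara fell by 1.69 ± 0.45 and Fabp3 fell by 1.64 ± 0.51 there. The Fabp3 call was lost without any single library except injured replicate 2, at adjusted p of 0.0619 to 0.114, and the Ppara call without injured replicate 2 or sham replicate 1 or 3, at adjusted p of 0.0518 to 0.0694. With all libraries, Fabp3 was not called with injury by edgeR (adjusted p = 0.063) or DESeq2 (adjusted p = 0.0884). Nor was it in the authors' deposited results (adjusted p = 0.0882).

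**Figure D4:**
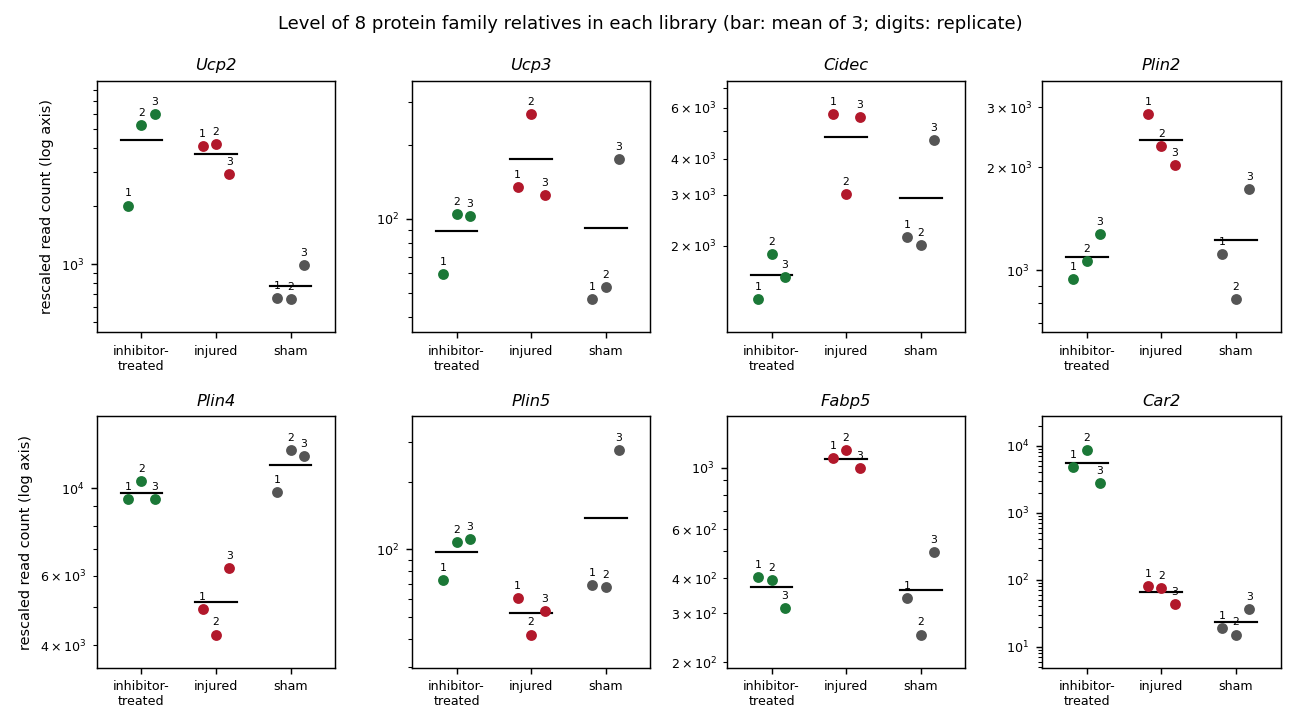
Level of 8 protein family relatives, as rescaled read counts on a log axis, in inhibitor-treated, injured and sham libraries; points are libraries, digits replicate numbers and bars group means. Ucp2 is lowest in the sham libraries, at 659 to 991, and Car2 is highest in the inhibitor-treated libraries, at 2828 to 8736.

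Markers of other cells an artery sample can hold were read beside these values. Of 12 adipocyte markers, 11 were present in all libraries and none was under 10 throughout. Their sum, which includes Adipoq, Plin1 and Cfd, was 23641 to 30410 in the inhibitor-treated libraries, 41215 to 65766 in the injured libraries and 31007 to 53993 in the sham libraries. Without those 3 genes, the other 8 markers summed to 13636, 15601 and 13816 in the inhibitor-treated libraries, 18520, 11687 and 18987 in the injured libraries and 15211, 17528 and 23386 in the sham libraries, so the groups overlapped. Plin4 was the most abundant of these 8, at 9388 to 10437 in the inhibitor-treated and 4256 to 6288 in the injured libraries. Cidec, Lipe, Retn, Lep and Mrap were each lower in all 3 inhibitor-treated libraries than in any injured one, while Adrb3 and Tshr overlapped. The overlap of the sums therefore does not describe most of the single markers. Adipocyte RNA was thus measured in all 9 libraries, although the labels say that fat was dissected off. Macrophage markers, 12 of 12 present, summed to 8391 to 12767 in the inhibitor-treated libraries, 32759 to 48815 in the injured libraries and 6741 to 7747 in the sham libraries. Endothelial markers summed to 33947 to 34894 in the inhibitor-treated libraries, 41365 to 54362 in the injured libraries and 27215 to 40844 in the sham libraries. Fibroblast markers summed to 56310 to 60144 in the inhibitor-treated libraries, 123126 to 165545 in the injured libraries and 68945 to 82840 in the sham libraries. Mertk of the macrophage list and Pi16 of the fibroblast list went against these sums. Mertk had a mean of 1449 in injured, 2989 in inhibitor-treated and 2728 in sham arteries. Pi16 had 4521, 5971 and 10447 in the same order. All 3 injured libraries were above the other 6 for the macrophage, endothelial and fibroblast sums, and 6 of the 8 genes were highest in injured arteries by group mean. The part of those cell types in the 6 genes was not tested. Skeletal muscle markers, 16 of 18 present, summed to 7535 to 45511 in the inhibitor-treated libraries, 34119 to 564829 in the injured libraries and 14623 to 38283 in the sham libraries. Of 6 mesothelial markers only Msln was present in all 9 libraries, at 0 to 39.0 counts.

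**Figure D5:**
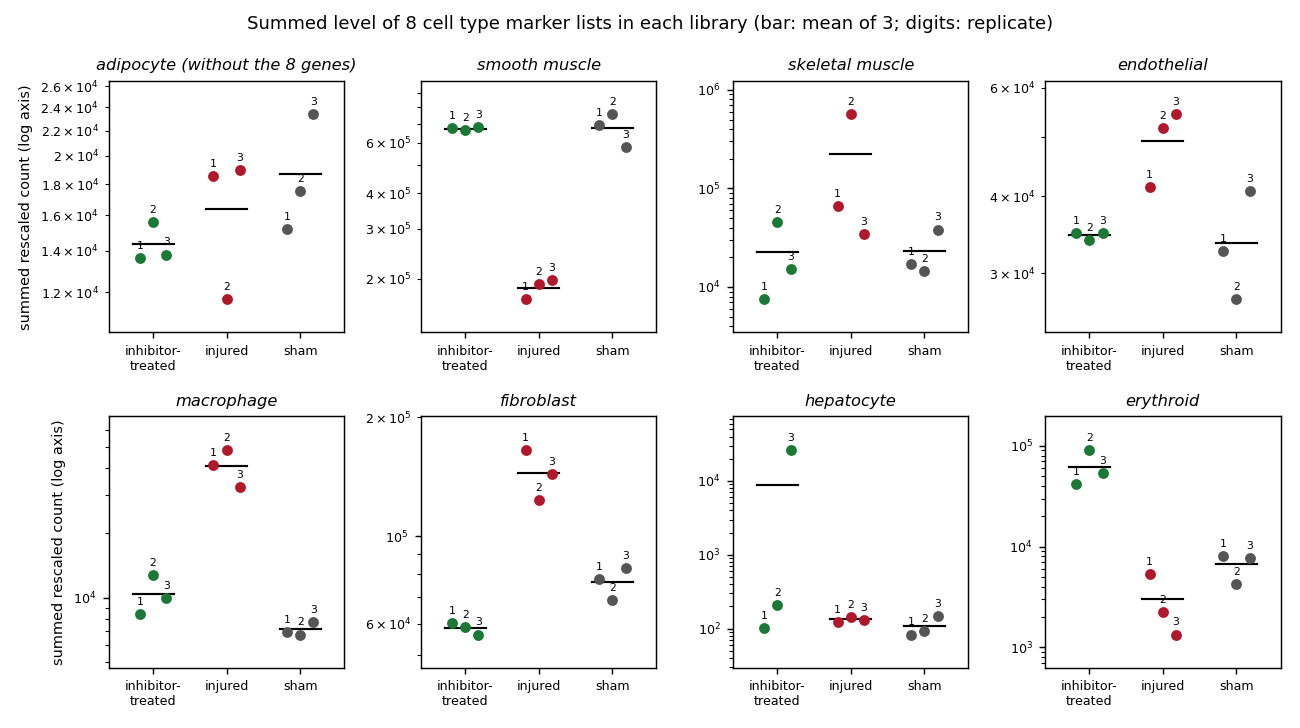
Summed rescaled read counts of 8 cell type marker lists, on log axes, in inhibitor-treated, injured and sham libraries; points are libraries, digits replicate numbers and bars group means. The adipocyte panel leaves out Adipoq, Plin1 and Cfd. Macrophage markers are highest in the injured libraries, at 32759 to 48815, and single libraries stand apart for skeletal muscle (injured replicate 2, 564829) and hepatocyte markers (inhibitor-treated replicate 3, 26537).

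Leaving out injured replicate 2, sham replicate 3 and inhibitor-treated replicate 3 together kept the direction of all 8 genes in both comparisons with injured arteries. The log2 difference of inhibitor-treated over injured arteries was then 5.47 for Ucp1 and 3.66 for Cidea. That of injured over sham arteries was -5.09 for Ucp1, -3.03 for Cidea, 1.52 for Adipoq, 1.58 for Cfd and 1.55 for Car3. Of the 86 other genes, 28 then rose with injury. Over all genes 4142 were then called in either direction, against 6076 with all libraries. The share of all genes that rose there is not given, so nothing is read from the 28. Among the named genes, that setting also ended the calls of Rxrg, Insr, Scd2, Elovl6, Ppard and Plin5 with the inhibitor, at limma adjusted p of 0.0596 to 0.255, and of Ppard, Ppara and Car12 with injury, at 0.0737 to 0.288. Scaling on ribosomal protein genes ended the calls of Rxrg, Pcx and Scd2 with the inhibitor, at limma adjusted p of 0.108 to 0.73, and of Cebpa, Plin2 and Gpihbp1 with injury, at 0.0535 to 0.133.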

How the data were processed

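The authors deposited 3 tables, 1 per pair of groups, which per the file headers hold normalised read counts per gene and library beside the authors' log2 fold changes and raw and adjusted p-values. The normalised counts are a signal that the authors scaled separately in each table, as the values show. The genome build was mm10 (GRCm38), per the submitters' processing notes. Which aligner, counter, strand setting and test the authors used is not given in the sources used here. Whole reads were recovered from every column for 100% of values within 0.01 of a read, and libraries held in 2 tables gave 0 differences over 143802 values. Within each table, limma 3.58.1 (R 4.3.3) was fitted to log2(normalised count + 1), with a trended variance, a mean of at least 10, two-sided moderated tests and Benjamini-Hochberg adjustment at 0.05. The fit was checked on simulated data. Alternatives used edgeR 4.0.16, DESeq2 1.42.0, other pseudocounts, filters and scalings, the authors' deposited results, and left-out libraries. No 2 replicates were repeats within sampling noise. The 8 genes and all lists were chosen with earlier results of these data known. Genes named from a list and comparison were the up to 2 largest rises and 2 largest falls among those called with a mean of at least 100, beside all relatives of the 8 and the 5 genes most like each of Ucp1, Adipoq and Car3. Some genes that this rule names are not reported here.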

Additional observations from a re-analysis of the deposited data

How the results depend on the processing

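The log2 differences of the 8 genes for inhibitor-treated over injured arteries and for injured over sham arteries kept their direction under all alternatives run, with Ucp1 between 5.47 and 6.10 and between -6.53 and -5.09. Of 432 alternative values, 13 moved by over 1 SD. Scaling on ribosomal protein genes moved the median of all genes to 0.401 for inhibitor-treated over injured, -0.258 for injured over sham and 0.110 for inhibitor-treated over sham arteries, and gave -1.14 for Adipoq, -1.50 for Cfd and -1.25 for Car3 in the first. Under that scaling, of the 86 other genes of fat cells, 24 rose and 10 fell with the inhibitor, 5 rose and 19 fell with injury, and 0 were lower in inhibitor-treated than in sham arteries. Genes that rose with injury numbered 28 without the 3 libraries that stood apart, 17 with the replicate block and 5 to 22 when single libraries were left out. Genes called between inhibitor-treated and sham arteries were 2 higher and 1 lower without the libraries that stood apart, and 2 higher and 1 lower with the replicate block. The lower count was also 1 with a mean of at least 50 and with edgeR, and 0 with all 9 libraries in 1 fit. Left-out single libraries gave 1 to 6 higher and 0 to 1 lower there, 16 to 21 higher and 15 to 23 lower with the inhibitor, and 15 to 17 lower with injury. The shares of all genes in each direction under these alternatives are not given, so nothing is read from these counts. Leaving out a library keeps at least 2 per group. Same-numbered libraries deviated from their group means with correlations of -0.076 to 0.192. Replicate 2 of inhibitor-treated and injured arteries (0.192) were each other's best match, as were replicate 1 of inhibitor-treated and sham arteries (0.112). No other same-numbered libraries were. With 3 libraries per group, these values cannot settle whether the numbers pair the libraries. For single named genes, 95 alternative values lost a call, 32 gained one and 1572 kept their side of the threshold; the causes were not tested. Low counts, such as 16 to 39 reads of Ucp1 in injured arteries, limit the precision of its differences.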
